A study of Arabidopsis thaliana with 42 samples.

Results

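Genes of the evening arm of the plant circadian clock were followed through seedlings of the founders of the Arabidopsis MAGIC population, a set of lines made by intercrossing natural accessions. They are ELF3 (AT2G25930), ELF4 (AT2G40080), LUX or PCL1 (AT3G46640), BOA (AT5G59570), GI (AT1G22770), FKF1 (AT1G68050), ZTL (AT5G57360), LKP2 (AT2G18915) and CHE (AT5G08330), 9 of the 33770 nuclear and newly annotated genes in the deposited tables. They were listed by locus, but the list was chosen with earlier results of these data known. Every accession was sampled as whole seedlings about 11 days old, raised on soil at 20 C in long days, with 16 hours of light and then 8 hours of dark, once the seeds had been kept for 5 days at 4 C. The accessions are Bur-0, Can-0, Ct-1, Edi-0, Hi-0, Kn-0, Ler-0, Mt-0, No-0, Oy-0, Po-0, Rsch-4, Sf-2, Tsu-0, Wil-2, Ws-0, Wu-0, Zu-0 and, as the source of the reference genome, Col-0. Each of these 19 accessions had 2 biological libraries, 38 in all, and Col-0 had 4 further libraries labelled as technical replicates. No mutant, transgene or treatment was part of the design. The hour of harvest is not given in the sources used here, nor whether the seedlings of a library were pooled.

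The clock of Arabidopsis runs as a loop of repressors that act at different times of day. CCA1 and LHY, a pair of MYB-type transcription factors made around dawn, repress evening genes through a promoter sequence called the evening element. ELF3, ELF4 and LUX form the evening complex, a repressor of growth and clock genes at dusk, in which LUX carries the DNA-binding domain. BOA is a close homologue of LUX. GI is a large plant-specific protein that binds the blue-light receptors of the ZTL family, F-box proteins that mark clock and flowering regulators for degradation. FKF1 and LKP2 are the other members of that family. CHE is a TCP transcription factor that represses CCA1. Transcripts of ELF4, LUX, GI and FKF1 are known to cycle strongly over the day, whereas that of ZTL is known to stay nearly level.

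Library depth, estimated from the smallest steps in the values, was 1240000 to 4920000 reads with a median of 3620000. At that depth 3 reads on 1500 bases were worth 0.407 to 1.61 RPKM, reads scaled to exon length and library size. This floor covers counting error only. By the same estimate BOA had a median of 8.83 reads per library and ELF4 of 28.5. Leaf markers RBCS1A, CAB2 and RCA summed to 19462 to 31388 RPKM per library, root markers PYK10 and BGLU22 to 81.1 to 447.5, flower markers AP3, PI and AG to 0 to 2.76, and seed markers CRA1, CRU3 and SESA1 to 0 to 23.2. PYK10 made nearly all of the root sum, since BGLU22 reached at most 1.15 RPKM in the libraries other than No-0. The seed sum had a median of 0, and CRA1 and CRU3 were highest in Po-0. In whole seedlings fewer cells of a type and less RNA per cell cannot be told apart, and the part of marker levels in the results below was not tested. The labelled biological replicates were sequenced on 5 pairs of lanes, with 3 or 4 accessions per pair. Pair P1 held Ct-1, Can-0, Bur-0 and Col-0, pair P2 Ler-0, Kn-0, Hi-0 and Edi-0, pair P3 Po-0, Oy-0, Mt-0 and No-0, pair P4 Wil-2, Tsu-0, Sf-2 and Rsch-4, and pair P5 Zu-0, Wu-0 and Ws-0. No accession was split over lane pairs, so a difference between accessions of different pairs and a difference between the pairs cannot be told apart. Pair P5 was on another sequencing run than pairs P1 to P4. Both Zu-0 libraries were run in 1 lane.

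CCA1 and LHY repress evening genes through the evening element, so the promoters described here that hold it are printed. Their sequences come from the RefSeq annotation of TAIR10.1, from 250 bases before to 20 bases after the annotated gene start. Capitals mark the evening element, AAATATCT or its reverse complement AGATATTT.
LUX (chr3:17182792-17183061, plus strand): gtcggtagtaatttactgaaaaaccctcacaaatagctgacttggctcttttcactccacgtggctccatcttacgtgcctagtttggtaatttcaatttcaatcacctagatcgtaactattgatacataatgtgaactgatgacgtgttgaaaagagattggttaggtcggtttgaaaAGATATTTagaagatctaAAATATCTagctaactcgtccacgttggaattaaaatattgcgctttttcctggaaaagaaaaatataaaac
BOA (chr5:24003638-24003907, plus strand): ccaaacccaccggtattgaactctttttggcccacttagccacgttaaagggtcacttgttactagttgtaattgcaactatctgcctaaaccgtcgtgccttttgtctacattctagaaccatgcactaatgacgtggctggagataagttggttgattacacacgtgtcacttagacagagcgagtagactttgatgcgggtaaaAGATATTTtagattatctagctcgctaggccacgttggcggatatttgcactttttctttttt
FKF1 (chr1:25508389-25508658, plus strand): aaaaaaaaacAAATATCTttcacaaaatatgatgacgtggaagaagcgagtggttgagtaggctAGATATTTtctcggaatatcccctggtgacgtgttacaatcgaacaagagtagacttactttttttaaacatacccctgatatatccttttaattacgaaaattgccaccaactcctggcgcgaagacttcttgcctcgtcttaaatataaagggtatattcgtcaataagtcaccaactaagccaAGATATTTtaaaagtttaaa
GI had no match in that window, and its 3 evening elements lay between bases -808 and -583, counted from the start, and are shown here with 20 bases on either side.
GI, element from -808 (chr1:8060923-8060970, plus strand): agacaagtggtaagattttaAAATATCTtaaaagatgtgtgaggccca
GI, element from -777 (chr1:8060954-8061001, plus strand): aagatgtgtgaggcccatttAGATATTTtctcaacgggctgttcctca
GI, element from -590 (chr1:8061141-8061188, plus strand): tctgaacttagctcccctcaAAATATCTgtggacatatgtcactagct

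Between 250 bases before and 50 bases after the start, both strands counted, 3 of the 8 promoters described here held an evening element, against 5.64% of 27431 promoters of protein-coding genes. FKF1 held 3 matches, LUX 2 and BOA 1. Between 1000 bases before and 50 after, GI was added, which made 4 of 8, against 16.0% of promoters. ELF3, ZTL, LKP2 and CHE had no match to these letters in the longer window. In the shorter window a LUX-binding site, searched as GATACG or GATTCG, was present in ELF3 and LKP2, 2 of 8, against 14.5% of promoters. The CCA1-binding site AAAAATCT, which shares no position with the evening element matches, was found in LKP2, 1 of 8, against 7.87%. The G-box CACGTG was found in LUX and BOA, 2 of 8, against 7.68%. No promoter of the 8 held the TCP site GGNCCCAC, against 1.32%. These are matches of letters, not measured binding.

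**Figure D1:**
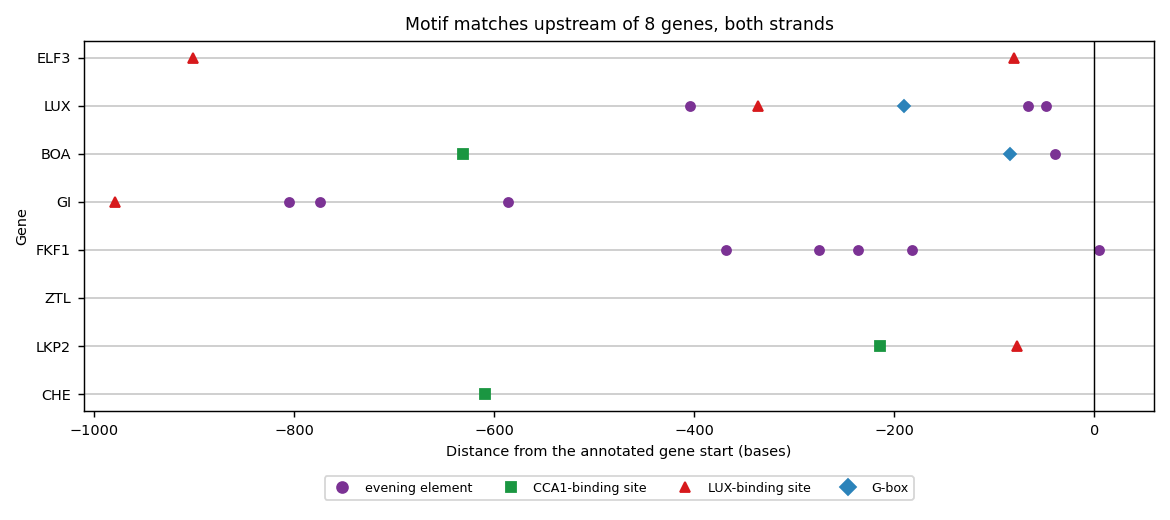
Position of motif matches upstream of 8 genes on both strands, in bases from the annotated gene start at 0. Evening elements appear in the rows of LUX, BOA, GI and FKF1, and the row of ZTL is empty.

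The first question was which of the 9 genes differed among accessions. ELF3, ELF4, LUX, BOA, GI, FKF1 and CHE did, by the F test over 18 accessions (limma on log2(RPKM + 1), adjusted p under the threshold of 0.05). These are 7 of 9 genes, against 56.2% of the 20397 genes tested. The 2 F-box genes ZTL and LKP2 did not pass, with adjusted p of 0.109 and 0.550. No-0 was left out of this test by plan, which treated its 2 libraries apart, and it is described below. The median span between the highest and the lowest accession was 1.80 on the log2 scale over the 9 genes, against 0.99 over all genes tested. ELF4 spanned 5.56 and FKF1 5.08, LUX 2.82, BOA 1.89, GI 1.80, ELF3 1.63, CHE 0.72, ZTL 0.45 and LKP2 0.44.

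**Figure D2:**
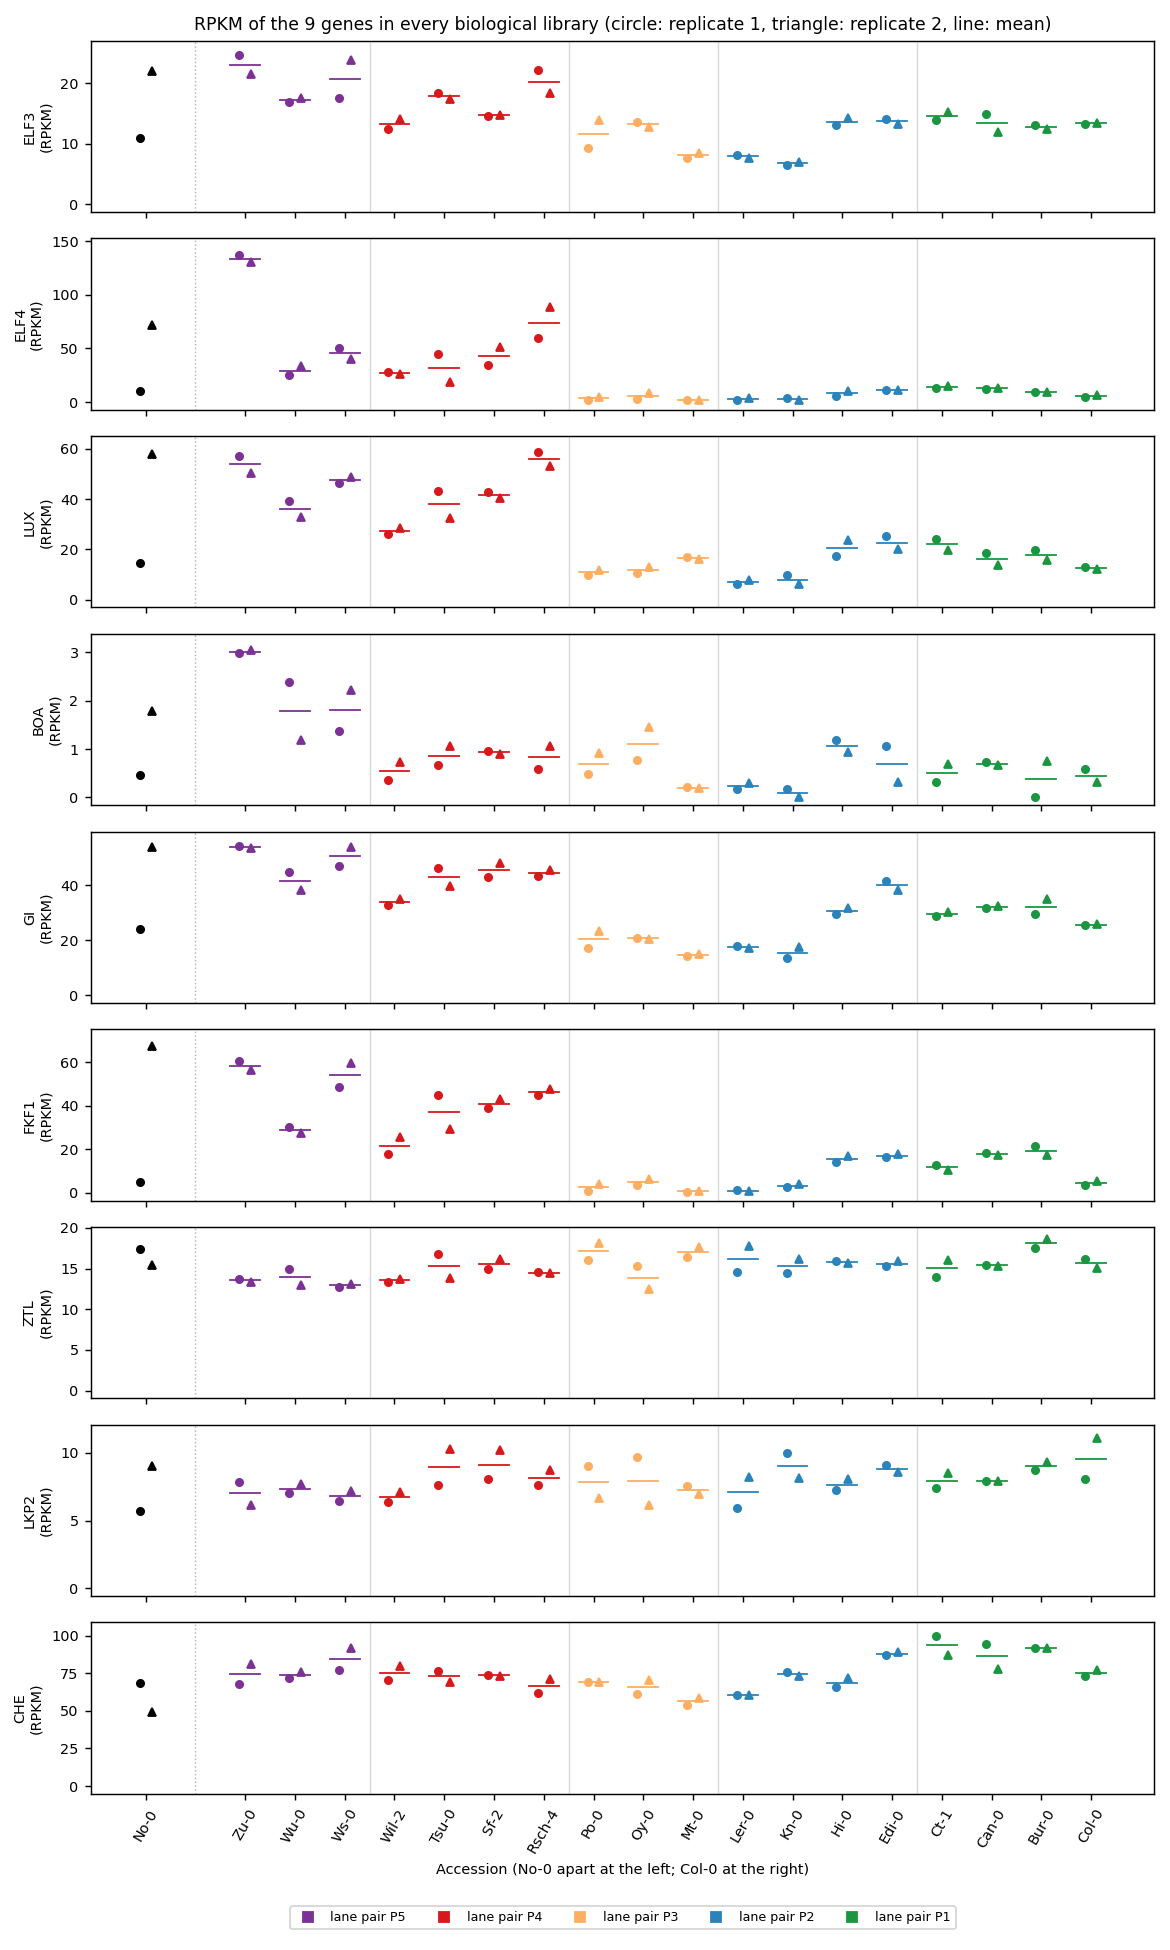
RPKM of each gene in all 38 biological libraries, by accession and coloured by lane pair, with No-0 apart at the left and Col-0 at the right. Circles are replicate 1, triangles replicate 2 and lines the mean of the 2. ELF4, LUX and FKF1 sit higher in every library of pairs P5 and P4 than in nearly every library of the other pairs, while ZTL and LKP2 span less.

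Within the evening complex, ELF4, a small protein of the complex, had the widest span of the 9 genes on the log2(RPKM + 1) scale. As a ratio of the highest to the lowest accession mean in RPKM, FKF1 was wider, at 76.8 against 70.9 for ELF4. ELF4 stood at 137.1 and 130.2 RPKM in Zu-0 and at 59.6 and 88.6 RPKM in Rsch-4. In Ler-0 it stood at 1.57 and 3.88 RPKM, in Mt-0 at 1.52 and 2.25 RPKM and in Col-0 at 4.76 and 6.11 RPKM. The low values rest on few reads, about 3 in the lowest library. ELF4 was higher than in Col-0 in Zu-0, Rsch-4, Ws-0, Sf-2, Tsu-0, Wu-0 and Wil-2, by 4.39 ± 0.40 in Zu-0 (log2 difference ± SE, adjusted p = 2.53e-08) to 2.13 ± 0.40 in Wil-2 (adjusted p = 0.000772). It was lower than Col-0 in none of the 17 accessions by the adjusted limma test, and 12 contrasts had an unadjusted p under 0.05 in either direction.

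LUX, the DNA-binding subunit, stood at 58.7 and 53.1 RPKM in Rsch-4, the highest accession, and at 57.1 and 50.5 RPKM in Zu-0. Its lowest values were 6.19 and 7.97 RPKM in Ler-0 and 9.73 and 6.17 RPKM in Kn-0, against 13.2 and 12.3 RPKM in Col-0. It was higher than in Col-0 in 9 accessions, the 7 named for ELF4 with Edi-0 and Ct-1, by up to 2.05 ± 0.20 in Rsch-4 (adjusted p = 8.54e-08). LUX was lower in Ler-0, by -0.78 ± 0.20 (adjusted p = 0.0113), and in Kn-0, by -0.65 ± 0.20 (adjusted p = 0.0455), and neither call was made without either of the Col-0 libraries or with No-0 included. Without a filter on low values, and likewise without a variance trend, 1 accession was called as lower. Leaving out a library of Ct-1, Mt-0, Sf-2, Wil-2, Ws-0 or Zu-0 (either replicate), Kn-0 (replicate 2) or Ler-0 (replicate 1) left 1 of these 2 calls. Another gene on the opposite strand, AT3G46650, overlaps 17.8% of its exon bases, and without stated use of strand the reads of both cannot be told apart there.

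ELF3, the scaffold of the complex, moved over a narrower range than its partners. It measured 24.6 and 21.6 RPKM in Zu-0, 17.6 and 23.9 RPKM in Ws-0 and 22.2 and 18.4 RPKM in Rsch-4. In Kn-0 it measured 6.57 and 7.03 RPKM, in Ler-0 8.20 and 7.71 RPKM and in Mt-0 7.64 and 8.56 RPKM, against 13.4 and 13.5 RPKM in Col-0. The libraries of these low accessions did not overlap those of Col-0, and the share of all genes for which this holds was not counted. The 3 highest accessions rose above Col-0, Zu-0 by 0.74 ± 0.15 (adjusted p = 0.00146), and the 3 lowest fell below it, Kn-0 by -0.89 ± 0.15 (adjusted p = 0.000443). Without either of the Col-0 libraries, 1 accession was called as higher for ELF3, and likewise with No-0 included.

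BOA, the LUX homologue, was the scarcest of the 9 genes. Its libraries ranged from 0 to 3.04 RPKM with a median of 0.737, and 3 reads on its exons were worth 0.167 to 0.662 RPKM. Zu-0 held 2.98 and 3.04 RPKM, Wu-0 2.39 and 1.20 RPKM and Ws-0 1.38 and 2.22 RPKM, against 0.581 and 0.326 RPKM in Col-0. These 3 accessions were higher than Col-0, Zu-0 by 1.47 ± 0.28 (adjusted p = 0.000671), and 1 of them was called without either of the Col-0 libraries. At pseudocount 0.1 in place of 1 also, 1 accession was called as higher, and 21 pairs of accessions differed in BOA, against 32. Zu-0, Wu-0 and Ws-0 make up pair P5, on another run than Col-0, so accession and run cannot be told apart in these calls. AT5G59580 on the opposite strand overlaps 45.9% of the BOA exon bases, so its values carry the same limit as those of LUX. The proteins of LUX and BOA, of 324 and 298 residues, matched at 66.4% of 289 aligned residues, and 0.39% and 1.21% of their exon words of 36 bases occur in another gene.

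GI, the partner of the ZTL-family receptors, had 54.2 and 53.7 RPKM in Zu-0 and 47.2 and 54.1 RPKM in Ws-0. In Mt-0 it had 14.4 and 15.2 RPKM, in Kn-0 13.5 and 17.5 RPKM and in Ler-0 17.8 and 17.2 RPKM, against 25.7 and 25.8 RPKM in Col-0. Its replicates lay close together, and its spread was the narrowest among the 6 evening genes with a residual SD of 0.13 on the log2 scale. Zu-0, Ws-0, Sf-2, Rsch-4, Tsu-0, Wu-0 and Edi-0 were higher than Col-0, Zu-0 by 1.04 ± 0.13 (adjusted p = 2.96e-06). Mt-0, Kn-0 and Ler-0 were lower, Mt-0 by -0.76 ± 0.13 (adjusted p = 0.000324).

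FKF1, the photoreceptor that with GI removes repressors of flowering, differed in more pairs of accessions than any other of the 9 genes, 106 in all. It reached 60.3 and 56.1 RPKM in Zu-0, 48.4 and 59.6 RPKM in Ws-0 and 44.7 and 47.7 RPKM in Rsch-4. Mt-0 had 0.595 and 0.923 RPKM and Ler-0 1.15 and 0.930 RPKM, against 3.59 and 5.37 RPKM in Col-0. In 12 accessions it was higher than in Col-0, by 1.22 ± 0.31 in Ct-1 (adjusted p = 0.0159) to 3.45 ± 0.31 in Zu-0 (adjusted p = 2.37e-08). Mt-0 was lower by -1.63 ± 0.31 (adjusted p = 0.00125) and Ler-0 by -1.41 ± 0.31 (adjusted p = 0.00414), and 1 of these 2 calls was made without Col-0 replicate 2 and neither with No-0 included. With No-0 included, 66 pairs differed in FKF1. Of its exon words of 36 bases, 5.62% occur in another gene as well, so the value is uncertain, by an amount that this share does not give.

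ZTL and LKP2, the relatives of FKF1, had narrower spans. ZTL, the receptor that acts on TOC1 and PRR5, lay between 12.5 and 18.7 RPKM over 36 libraries with a median of 15.3. Its means ran from 18.1 ± 0.79 RPKM in Bur-0 to 13.0 ± 0.25 RPKM in Ws-0 (SD, n = 2 each). LKP2 lay between 5.96 and 11.1 RPKM with a median of 7.93. Against Col-0, limma called 0 of 17 accessions for both genes, with 0 contrasts at an unadjusted p under 0.05 for ZTL and 2 for LKP2. Over all pairs of the 18 accessions ZTL differed in 6, with 19 at an unadjusted p under 0.05, and LKP2 in 0, with 2. The 6 of ZTL were 2 to 3 without either library of Bur-0 or of Ws-0. The ZTL and LKP2 proteins matched at 74.5% of 603 aligned residues, ZTL and FKF1 at 63.6% and LKP2 and FKF1 at 61.2%, each of 605. The antisense gene AT2G18917 overlaps 15.8% of the LKP2 exon bases.

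CHE was the most abundant of the 9 genes, at 53.7 to 100.1 RPKM over 36 libraries with a median of 73.3. It was highest in Ct-1 at 93.6 ± 9.08 RPKM and lowest in Mt-0 at 56.3 ± 3.58 RPKM (SD, n = 2 each). Of the 17 accessions, Mt-0 alone fell below Col-0, by -0.41 ± 0.11 (adjusted p = 0.0212), and that call was lost without either of the Col-0 libraries or without Mt-0 replicate 1, and with No-0 included. None was higher by the adjusted limma test, and 4 contrasts had an unadjusted p under 0.05 in either direction.

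Summed over the 9 genes and 17 accessions, 41 contrasts were higher than Col-0 and 11 lower, against 5.19% higher and 4.67% lower over all genes and contrasts. The 11 lower calls were 4 with No-0 included and 6 without Col-0 replicate 2. All these contrasts share the same Col-0 libraries. Over all pairs of the 18 accessions the 9 genes made 547 calls, counted per gene and pair, while 12.5% of all genes and pairs were called. By gene these were 106 for FKF1, 102 for LUX, 98 for GI, 96 for ELF4, 72 for ELF3, 35 for CHE, 32 for BOA, 6 for ZTL and 0 for LKP2. Most neighbours in the order of accession means did not differ beyond their spread. Neighbours were picked by the same means that were tested, which favours small gaps, so few calls say little about the accessions. Of all comparisons between neighbours, 1 passed the threshold, FKF1 in Ct-1 over Oy-0, with a gap of 1.10 on the log2 scale (adjusted p = 0.0233). Even ELF4 in Zu-0 over Rsch-4, a gap of 0.87, did not pass (adjusted p = 0.173).

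**Figure D3:**
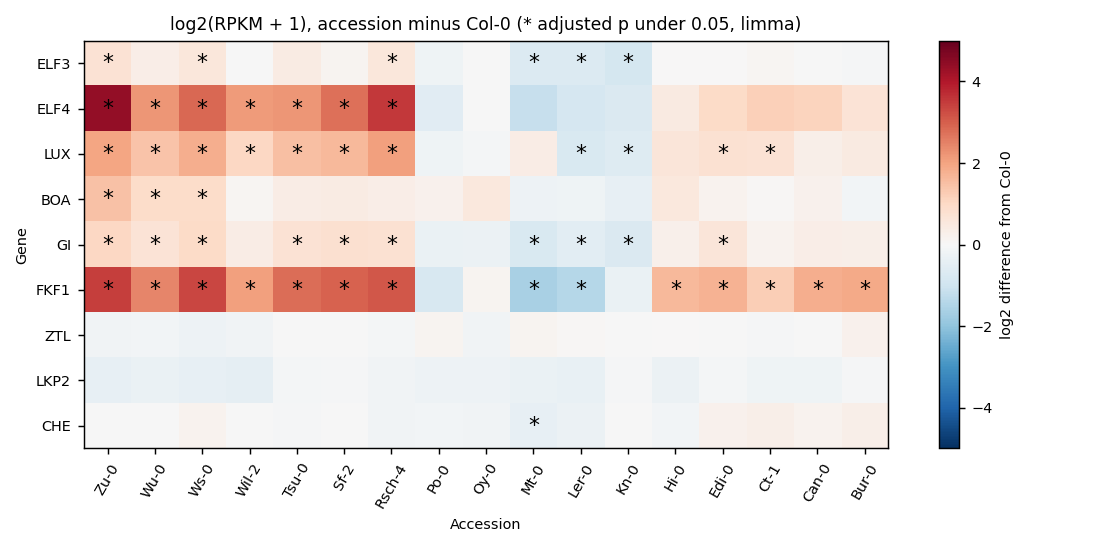
Difference of each accession from Col-0 in log2(RPKM + 1), with genes as rows, accessions as columns and stars where the adjusted p was under 0.05. ELF4, LUX and FKF1 are starred from Zu-0 through Rsch-4, the ZTL and LKP2 rows carry no star, and the lower calls fall in Mt-0, Ler-0 and Kn-0.

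The high accessions were also those of 2 lane pairs, among the 18 accessions without No-0. ELF4, LUX and FKF1 each had their 7 highest means in the 7 accessions of pairs P5 and P4. ELF4 lay between 18.4 and 137.1 RPKM in the 14 libraries of P5 and P4 (median 42.6) and between 1.52 and 14.8 RPKM in the 22 libraries of P1 to P3 other than those of No-0 (median 5.86), and these ranges do not overlap. LUX lay between 26.0 and 58.7 RPKM in P5 and P4 and between 6.17 and 25.2 RPKM in the same 22 libraries, which do not overlap either. FKF1 lay between 17.6 and 60.3 RPKM in P5 and P4 and between 0.595 and 21.7 RPKM in the 22 libraries, and these ranges overlap. No-0 belongs to P3, and its replicate 2 goes against this grouping, with 71.7 RPKM of ELF4 and 57.7 RPKM of LUX, inside the ranges of P5 and P4, and 67.4 RPKM of FKF1, above every library of P5 and P4. GI and ELF3 had 6 of their 7 highest means in P5 and P4, BOA 5, LKP2 3, CHE 2 and ZTL 0. This grouping of lane pairs was noticed after the values were seen and was not tested. The share of all genes with such ranges or ranks was not counted.

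Of the spread of the 18 accession means, the share that lay between lane pairs was 82.8% for ELF4, 76.0% for LUX, 73.5% for FKF1, 71.6% for GI, 68.9% for BOA and 63.0% for ELF3. For CHE it was 54.7%, for ZTL 50.2% and for LKP2 37.8%, against a median of 31.4% over all genes tested and a 90th percentile of 59.5%. Fitted within lane pairs, without No-0, the genes still differed in some. In P1, ELF4 and FKF1 passed the F test (adjusted p = 0.0131 and 0.00950), 2 of 9 against 13.3% of all genes. In P2, ELF3, LUX, GI, FKF1 and CHE passed, 5 of 9 against 19.2%, and the lowest adjusted p was 0.00123 for FKF1. In P5, ELF4 and FKF1 passed (adjusted p = 0.0261 and 0.0489), 2 of 9 against 3.64%. In P3 and P4 limma called 0 of 9 genes, against 2.02% and 6.37% of all genes, with 2 and 4 genes at an unadjusted p under 0.05. Within P2, FKF1 had 14.1 and 16.9 RPKM in Hi-0 and 16.6 and 17.6 RPKM in Edi-0, while Ler-0 had 1.15 and 0.930 RPKM and Kn-0 2.73 and 4.03 RPKM.

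The next question was how far the genes moved together over the 18 accession means. The coefficients are descriptions, since the genes share libraries and lanes. Among ELF3, ELF4, LUX, GI and FKF1 Pearson's r was 0.87 to 0.97 and Spearman's rho 0.86 to 0.98 over 10 gene pairs. Without the 2 accessions farthest from the median of the first gene r was 0.82 to 0.97, and with the mean of each lane pair removed, a step chosen after seeing the data, it was 0.71 to 0.88. For the differences between replicates over the 18 accessions, r among these 5 genes was 0.03 to 0.71. BOA followed the 5 genes at r of 0.68 to 0.83 over the accession means. ZTL ran weakly against the 6 genes, at r of -0.65 to -0.50, and at -0.25 to 0.09 with lane-pair means removed. LKP2 had r of -0.39 to -0.01 with them, which turned to 0.03 to 0.22 with lane-pair means removed. CHE had r of 0.10 to 0.49 with the 6 genes, and 0.18 to 0.62 with lane-pair means removed. Spearman's rho of CHE with the 6 genes was -0.08 to 0.30.

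CCA1 ran the other way. It had 2.03 and 1.13 RPKM in Zu-0 and 37.7 and 36.7 RPKM in Mt-0, against 15.6 and 16.2 RPKM in Col-0. Its r with the 6 evening genes was -0.95 to -0.78, strongest with ELF4, and -0.83 to -0.66 with lane-pair means removed, strongest there with GI. For the differences between replicates over the 18 accessions, r of CCA1 with the 6 genes was -0.33 to 0.03. LHY, the relative of CCA1, had r of -0.95 to -0.80 with the same genes, and -0.74 to -0.20 for the differences between replicates. LHY measured 14.1 and 14.1 RPKM in Kn-0 and 0.702 and 0.546 RPKM in Zu-0. The hour of harvest was not given, so accession and hour of harvest cannot be told apart.

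**Figure D4:**
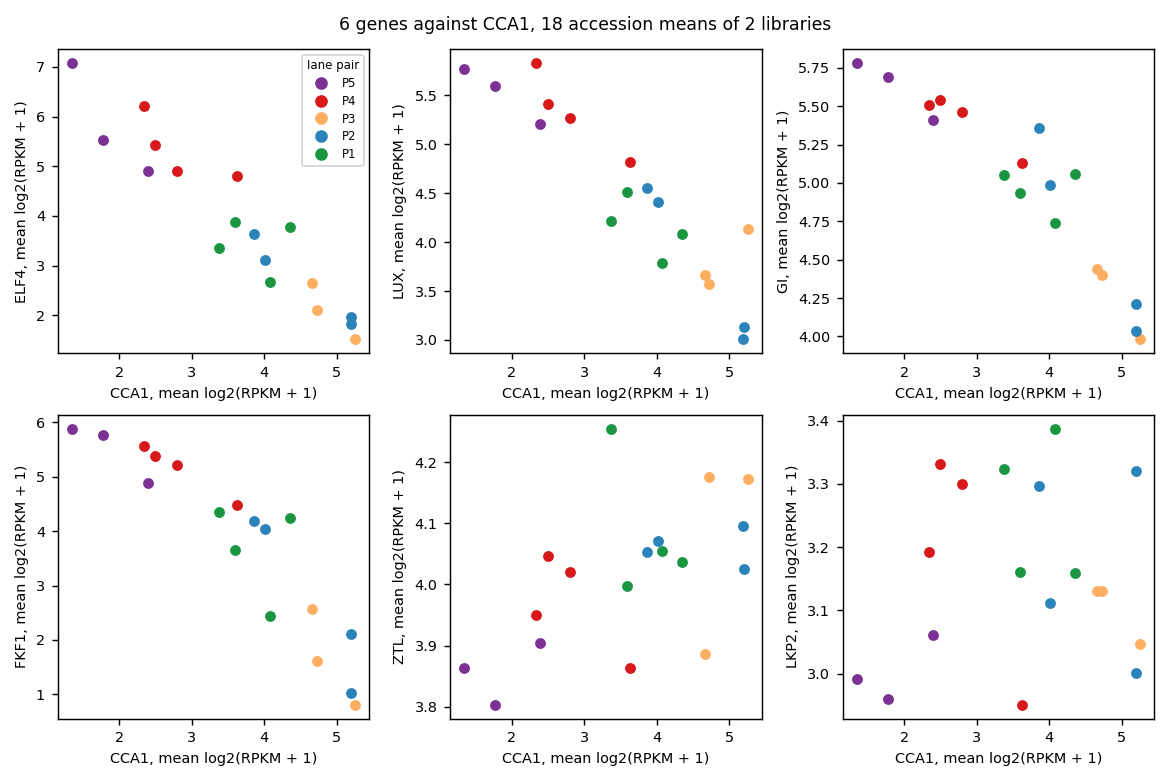
Mean log2(RPKM + 1) of 6 genes (vertical axis) against that of CCA1 (horizontal axis) for 18 accessions, coloured by lane pair. ELF4, LUX, GI and FKF1 are lower where CCA1 is higher, and ZTL and LKP2 span less than 0.5.

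The remaining clock genes give the setting, and their counts stand against the 56.2% of all genes tested that passed the F test. Of 7 morning genes 6 passed the F test, and CCA1, RVE8 and LHY spanned most, 3.91, 3.80 and 3.22 on the log2 scale. All 5 pseudo-response regulators passed, with PRR5, PRR9 and PRR3 spanning 3.22, 3.04 and 3.02. Among ELF4-like and ELF3-like genes 4 of 5 were tested and 2 passed, EFL3 with a span of 2.01 (adjusted p = 0.0499) and EFL4 with 1.38, while EFL1 spanned 1.26 (adjusted p = 0.368). Of 8 genes downstream of the GI-FKF1 module and the evening complex 7 passed, led by CDF2 at 2.41, CO at 1.78 and PIF5 at 1.62. RNA of CDF2, a repressor whose protein FKF1 and GI mark for degradation, was lowest in Ws-0, at 0.262 and 0.422 RPKM. Protein was not measured. In these Ws-0 libraries 3 reads on 1500 bases were worth 0.501 and 1.61 RPKM, so both values rest on very few reads. CO was near that floor as well, at 0 to 2.72 RPKM without No-0, with a library median of 0.457. Of 5 protein partners 3 passed, HSP90.2 with 0.90, ASK1 with 0.82 and PHYB with 0.73. That share, like that of the ELF4-like and ELF3-like genes, is near the share over all genes. Of 7 other clock genes 6 passed, with LWD1 at 1.86, PRMT5 at 0.92 and XCT at 0.80.

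For each gene past the F test, the 3 genes with the most similar profile over the 18 accession means were sought among 7175 genes. ELF4 was most like TOC1, the pseudo-response regulator that represses CCA1 (r = 0.979), then CIPK21 and COL9. FKF1 was most like GRP7, an RNA-binding protein (r = 0.979), then AT1G07050 and BBX8. GI was most like RIBA2 (r = 0.971), and AT1G07050 and BBX8 followed there too. LUX was most like TUB9 (r = 0.959), COR27 and AT4G27130, and ELF3 most like PHS2 (r = 0.957), PWD and THIC. BOA, at r of up to 0.866 with SNRK2.3, SCPL49 and JMJD5, and CHE, at up to 0.846 with RHA3A, LHB1B1 and AT4G25900, had weaker matches.

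The libraries of No-0 stood apart for these genes. FKF1 had 67.4 RPKM in replicate 2 and 4.85 RPKM in replicate 1, a difference of 3.55 on the log2 scale. In the other 18 accessions the largest difference of FKF1 between replicates, in either direction, was 1.49, in Po-0. ELF4 had 71.7 RPKM in replicate 2 and 10.1 RPKM in replicate 1, and LUX had 57.7 RPKM in replicate 2 and 14.7 RPKM in replicate 1. GI had 54.0 RPKM in replicate 2 and 24.1 RPKM in replicate 1, and ELF3 22.1 RPKM in replicate 2 and 10.9 RPKM in replicate 1. BOA had 1.80 RPKM in replicate 2 and 0.455 RPKM in replicate 1. For these 6 genes, for LKP2 and for CHE the difference between the No-0 libraries was larger than in any of the other 18 accessions. The margin was small for LKP2, 0.584 in No-0 against 0.576 in Oy-0, both as size on the log2 scale. The share of all genes for which No-0 differed most was not counted. CHE was lower in replicate 2, at 49.1 RPKM against 68.2 RPKM in replicate 1, as was CCA1, at 2.92 RPKM against 23.3 RPKM. ZTL differed by -0.17, at 15.4 RPKM in replicate 2 and 17.4 RPKM in replicate 1, and 12 of the other 18 accessions differed by less.

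The difference was not general to the same degree. Over all genes the No-0 libraries differed by 2-fold or more in 1334 genes, against 463 to 1316 in the other accessions, and their r over genes was 0.963, against 0.966 to 0.983. No-0 replicate 2 exceeded the mean of all 18 other accessions for LUX, GI and FKF1, while replicate 1 exceeded 5 of them for each. Both libraries carried the same labels of accession, age and growth, and each was on 1 of the 2 lanes of pair P3. Each is a single library, so no test was made, and the cause was not tested.

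**Figure D5:**
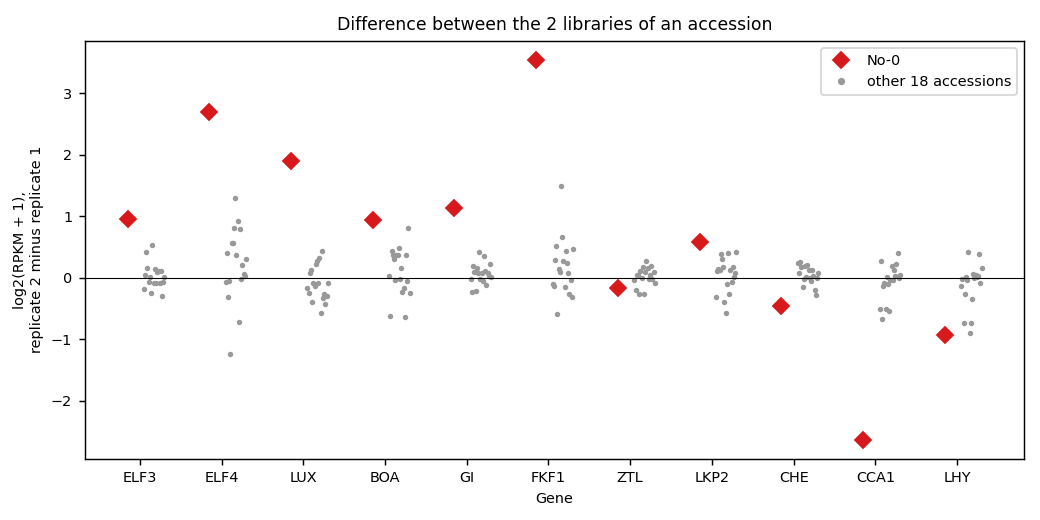
Replicate 2 minus replicate 1 in log2(RPKM + 1) for No-0 (diamonds) and for each of the other 18 accessions (dots), for the 9 genes, CCA1 and LHY. The diamonds of ELF4 at 2.71, FKF1 at 3.55 and CCA1 at -2.64 lie outside the dots, and that of ZTL at -0.17 lies among them.

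The Col-0 technical libraries gave a further set of values of the same accession, from another run and another feature set, so the comparison is a description. ELF4 averaged 40.1 ± 6.40 RPKM in the technical libraries (SD, n = 4) and 5.44 ± 0.95 RPKM in the biological ones (SD, n = 2). FKF1 averaged 13.0 ± 1.05 RPKM in the technical and 4.48 ± 1.26 RPKM in the biological libraries, and LUX 24.3 ± 1.10 RPKM in the technical and 12.8 ± 0.60 RPKM in the biological ones. BOA averaged 1.70 ± 0.21 RPKM in the technical and 0.453 ± 0.18 RPKM in the biological libraries. GI lay at 25.7 ± 1.40 RPKM in the technical and 25.8 ± 0.13 RPKM in the biological libraries, and ELF3 at 12.3 ± 0.92 RPKM in the technical and 13.4 ± 0.078 RPKM in the biological ones. ZTL averaged 21.6 ± 2.23 RPKM in the technical and 15.6 ± 0.75 RPKM in the biological libraries, and LKP2 7.22 ± 0.30 RPKM in the technical and 9.58 ± 2.18 RPKM in the biological ones. CHE was lower in the technical libraries, at 31.6 ± 1.63 RPKM against 75.3 ± 2.61 RPKM. CCA1 was higher there, at 42.7 ± 3.20 RPKM against 15.9 RPKM in the biological libraries, so ELF4 and CCA1 were both higher in this set, unlike their opposite order over the 18 accessions.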

How the data were processed

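RNA of seedlings was measured in 38 biological and 4 technical libraries. The authors deposited RPKM, reads scaled to exon model length and to mapped reads, per the file headers. In the biological libraries the authors deposited RPKM with a code of -1, so the column was handled as a score, and -1 was read as no value. The submitters' processing notes name TAIR9 and TAIR10; aligner, counter and strand use are not given in the sources used here. Tests took the 20397 genes that had values in all 36 libraries and reached 1 RPKM in 2 or more. The log2(RPKM + 1) values, a scale that understates changes at low levels, went into limma (version 3.58.1, R 4.3.3) with 1 mean per accession and a variance trend. Benjamini-Hochberg adjustment ran over all genes within each test, and 0.05 was the threshold. Nothing states that replicates came from separate cultures, so p-values measure the spread between libraries. Reads on 1 gene and on an antisense neighbour could not be separated. The fit was checked on simulated data.

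Genes were named by rule: all 9, the 3 most similar genes of each gene past the F test, and the 3 widest-spanning tested genes of each list (for most-similar genes, a span of at least 1 on the log2 scale). The genes and lists were chosen with earlier results of these data known. Alternatives were another pseudocount, no filter, 2 scalings, no variance trend, a replicate block, inclusion of No-0, each library left out and fits within lane pairs. Sequences came from RefSeq TAIR10.1 by its own coordinates. The promoter of 1 of the 9 genes is not reported here. The technical libraries, with 28691 genes, were described only. Python 3.11.15 drew the figures.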

Additional observations from a re-analysis of the deposited data

How the results depend on the processing

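The same 7 of 9 genes passed the F test at pseudocount 0.1, without a filter, with median-of-ratios or quantile scaling, without a variance trend, with the replicate block, with No-0 included and without any 1 of the 36 libraries. Within lane pairs 2 (P1), 5 (P2), 0 (P3), 0 (P4) and 2 (P5) of the 9 passed, and 2720, 3912, 413, 1300 and 742 of all genes; fewer samples enter these fits. With No-0 included, 30 contrasts of the 9 genes were higher than Col-0 and 4 lower, and 391 pairs differed; the cause was not tested. With the replicate block 43 were higher, 11 lower and 552 pairs differed, so no count of calls for the 9 genes moved by over 1.5 times; replicate numbers did not pair the samples, since deviations of same-numbered libraries correlated at -0.14 to 0.13 between accessions. Leaving out 1 library gave 7 to 7 of the 9 genes past the F test, 10779 to 11877 of all genes, 34 to 44 contrasts of the 9 genes higher and 6 to 13 lower (6 without Col-0 replicate 2), 10468 to 18532 and 8878 to 16895 over all genes (both lowest without Col-0 replicate 2), 515 to 566 pairs of the 9 genes and 358121 to 404888 of all genes. An accession left with 1 library was assumed to vary like the others. Median-of-ratios scaling turned the split over all genes to 16206 higher and 17980 lower, against 17985 and 16205. Without the 2 farthest accessions r of LKP2 with GI was 0.0038 and that of CHE with GI 0.358. With lane-pair means removed, r with GI was 0.776 for ELF4, 0.779 for LUX, 0.010 for ZTL and 0.213 for LKP2, with the sign turned for ZTL and LKP2; the cause was not tested. At pseudocount 0.1 the No-0 difference of BOA was 1.77, and 17 of the other 18 accessions differed by less. Depth limits BOA, CO and the low values of ELF4, FKF1 and CDF2, which rest on few reads.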
